A study of Homo sapiens with 18 samples.

Results

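The transcripts of the 5 NF-kB subunits (NFKB1, NFKB2, REL, RELA and RELB) and of 5 genes that NF-kB is known to switch on (NFKBIA, NFKBIE, TNFAIP3, BIRC3 and ICAM1) were followed in BEAS-2B, H446 and A549 cells. The 10 genes were named by symbol, with earlier results of these data known, and each was found once among the 18475 genes of the deposited table. BEAS-2B is labelled a lung epithelial cell line, H446 a small cell lung cancer line and A549 a lung adenocarcinoma line, and all 18 libraries carry the label wild type. Each line had 3 libraries labelled control and 3 that had received 10 Gy of X-rays. The RNA of irradiated cells was taken 24 h later, and no separate time is given for the controls. The sample titles read before for the controls and after for the irradiated libraries. A difference in time of harvest, if there was one, cannot be told apart from the dose. The study set the lung epithelial line beside the cancer lines to ask whether they respond differently to radiation. The labels do not say whether the 3 libraries of a group came from separate cultures, so the p-values measure the spread between libraries, which may be technical.

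NF-kB is a family of transcription factors whose subunits bind DNA in pairs. NFKB1 and NFKB2 encode the precursors p105 and p100, which are processed to p50 and p52 and which, unprocessed, hold other subunits in the cytoplasm. RELA, REL and RELB carry the domains that activate transcription. IkBα, encoded by NFKBIA, and IkBε, encoded by NFKBIE, keep dimers inactive until they are degraded after a signal, and since NF-kB induces both genes, they close a feedback loop. A20, a ubiquitin-editing protein encoded by TNFAIP3, and cIAP2, a ubiquitin ligase encoded by BIRC3, act upstream in the same pathway. ICAM1 is an adhesion molecule for leukocytes. In irradiated epithelium the pathway is known to be reached through a kinase that senses DNA breaks and through cytokine receptors.

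The values are taken to be FPKM (fragments scaled by transcript length and by the size of each library). This scaling does not remove trends with the GC content of transcripts, so comparisons of levels between genes and between libraries are approximate. Read depth is unknown, and the summed FPKM lay between 461255 and 529936. The p53 targets CDKN1A, MDM2 and FAS served as a check of irradiation. All 3 were above every control in each irradiated A549 library. BEAS-2B 10 Gy replicate 2 stood apart, with CDKN1A at 102 FPKM against 310 and 488 in the other irradiated BEAS-2B libraries and 79.9 to 86.4 in the controls, and its MDM2 (16.2) and FAS (3.47) lay below all controls. In H446 cells CDKN1A was at 63.6 to 72.4 after irradiation and at 71.7 to 75.7 in the controls, MDM2 at 9.94 to 11.8 and at 11.2 to 12.1, and FAS at 14.6 to 16.6, above its controls at 14.2 to 14.5. Of the neuroendocrine genes by which small cell lung cancer is usually recognised, SYP, CHGA and NCAM1 had means of 0.160, 0.0133 and 0.00167 FPKM in H446 cells. Of the 6 epithelial markers in this line, KRT7, KRT8 and KRT18 had means of 1232, 1320 and 1130 FPKM, and EPCAM, CDH1 and KRT19 of 1.06, 0.648 and 1.97. The line is therefore called H446 here and not by its tumor type. Genes driven by NRF2 that are typical of A549 summed to 3605 to 3668 FPKM in A549 controls and to 5881 to 6145 after irradiation. The 6 epithelial markers summed to 1713 to 1798 FPKM in A549 controls and 1435 to 1528 after irradiation, to 3868 to 3998 and 3335 to 3608 in H446, and to 1306 to 1381 and 1412 to 1506 in BEAS-2B cells, with no overlap in any line. The 5 markers of basal airway cells summed to 744 to 816 FPKM in H446 controls and to 844 to 945 after irradiation. This sum was almost all KRT17, with a mean of 820 FPKM in H446 cells. S100A2 had a mean of 22.1 FPKM there, TP63 of 0.808 and KRT5 of 0.005, and KRT14 lay between S100A2 and TP63. The higher sum is therefore not a rise of the basal markers as a set. PTPRC of leukocytes and CDH5 and VWF of endothelium were at or near 0 in all lines, CD14 was at 8.24 FPKM in BEAS-2B and PECAM1 at 3.80 in H446 cells, and the part of these differences in any result was not tested.

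To show where NF-kB could act on its own genes, RefSeq sequence of 250 bases before annotated starts (GRCh38.p14) was searched on both strands for the kappaB consensus, the DNA motif of these factors. It was written as GGGRNWYYCC (R is A or G, Y is C or T, W is A or T, N is any base). Only matches to all 10 bases were counted. Windows were given for 8 of the 10 genes, and 6 of them (NFKB1, NFKB2, REL, NFKBIA, TNFAIP3 and BIRC3) held a match in at least 1 window. The motif was found in 7 of their 12 windows and in 5.21% of the 35116 windows of all genes. The genes were named as subunits and known targets of NF-kB, so this excess follows from the choice and is no test. A match is a run of letters and not a measured site. The windows upstream of NFKB1 (chr4:102501109-102501358, plus strand), NFKBIA (chr14:35404750-35404999, minus strand) and BIRC3 (chr11:102317234-102317483, plus strand) are given because these 3 genes hold matches and yet went 3 ways in irradiated A549 cells, as described further on. ICAM1 (chr19:10270870-10271119, plus strand), which held no full match in this window, is shown beside them because it had the lowest ratio of irradiated to control cells in A549. Its window does hold tggaaattcc, which differs from the pattern at the first base only, so the lack of a full match does not mean the lack of a site. Matches are in capitals.
NFKB1: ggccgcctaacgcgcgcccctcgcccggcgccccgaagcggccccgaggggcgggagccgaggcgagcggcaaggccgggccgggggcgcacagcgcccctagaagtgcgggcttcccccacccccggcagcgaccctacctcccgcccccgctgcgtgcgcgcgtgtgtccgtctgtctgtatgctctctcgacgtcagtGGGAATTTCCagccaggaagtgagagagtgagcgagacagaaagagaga
NFKBIA: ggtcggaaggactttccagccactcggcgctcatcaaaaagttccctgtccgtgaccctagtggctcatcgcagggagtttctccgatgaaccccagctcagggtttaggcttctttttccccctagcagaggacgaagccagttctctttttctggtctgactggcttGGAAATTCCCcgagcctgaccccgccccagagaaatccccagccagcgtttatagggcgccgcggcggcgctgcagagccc
BIRC3: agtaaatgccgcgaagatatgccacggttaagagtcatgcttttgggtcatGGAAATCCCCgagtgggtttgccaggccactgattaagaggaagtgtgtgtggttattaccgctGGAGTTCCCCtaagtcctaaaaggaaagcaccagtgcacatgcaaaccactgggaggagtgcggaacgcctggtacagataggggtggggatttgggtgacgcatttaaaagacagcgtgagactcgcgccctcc
ICAM1: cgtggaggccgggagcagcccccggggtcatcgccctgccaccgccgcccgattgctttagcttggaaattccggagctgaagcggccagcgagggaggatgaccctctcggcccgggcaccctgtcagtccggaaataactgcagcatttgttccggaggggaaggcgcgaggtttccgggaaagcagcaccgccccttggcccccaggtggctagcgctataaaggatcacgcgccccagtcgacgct
The matches of NFKB2, REL and TNFAIP3 are shown with their surroundings only, and for NFKB2 and TNFAIP3 the windows with a match lie inside the annotated gene, before starts other than its outermost. The NFKB2 stretches are at chr10:102394462-102394490, chr10:102394490-102394519, chr10:102395519-102395548 and chr10:102395674-102395703, the REL stretch is at chr2:60881518-60881546 and the TNFAIP3 stretch, with a pair of matches side by side, is at chr6:137867188-137867217, all on the plus strand.
NFKB2 (a): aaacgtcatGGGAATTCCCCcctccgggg
NFKB2 (b): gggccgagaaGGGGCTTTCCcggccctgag
NFKB2 (c): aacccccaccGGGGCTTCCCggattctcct
NFKB2 (d): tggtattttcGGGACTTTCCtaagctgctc
REL: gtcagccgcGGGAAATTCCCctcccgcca
TNFAIP3: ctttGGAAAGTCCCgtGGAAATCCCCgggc
Of these 6 genes with a match, NFKB1, NFKB2 and REL fell in irradiated A549 cells, NFKBIA rose, and TNFAIP3 and BIRC3 did not pass the test.

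The lines differed in the levels of these transcripts before any irradiation. Between pairs of unirradiated lines, 81.1% to 83.8% of all 13071 genes tested differed as well. Among the controls, A549 had the highest mean of 8 of the 10 transcripts, all but RELA and ICAM1. NFKB2 was at 88.58, 91.92 and 85.18 FPKM in the A549 controls, at 19.66, 22.25 and 17.91 in BEAS-2B and at 24.75, 22.93 and 23.86 in H446 controls. RELB, the usual partner of p52, was at 40.7 ± 1.17 FPKM (SD, n = 3) in A549, 8.22 ± 0.289 in BEAS-2B and 3.59 ± 0.323 in H446 controls, a span of 11.3-fold. BIRC3 spanned 14.2-fold, with 108 ± 6.20 FPKM in A549 against 8.49 ± 0.592 in BEAS-2B and 7.66 ± 0.360 in H446 controls. TNFAIP3 followed the same order of A549 first, at 34.6 ± 2.13 FPKM, but was higher in H446 (8.76 ± 0.213) than in BEAS-2B controls (5.92 ± 0.893).

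ICAM1 had the opposite order. Its control libraries were at 67.17, 86.80 and 63.36 FPKM in BEAS-2B, 10.32, 10.10 and 10.06 in H446 and 1.30, 1.27 and 1.14 in A549 cells, a 58.6-fold span with no overlap between lines. The line with most NFKB2, RELB and BIRC3 transcript thus had least ICAM1. NFKBIA was at 123 ± 4.78 FPKM in A549, 52.1 ± 2.60 in H446 and 47.2 ± 3.13 in BEAS-2B controls, and was the most abundant of the 10 transcripts in A549 and H446. NFKBIE was at 10.6 ± 0.863, 2.10 ± 0.284 and 8.20 ± 0.192 FPKM in the same order of lines. RELA, the main activating subunit, varied least, between 39.1 ± 1.19 FPKM in H446 and 52.7 ± 8.14 in BEAS-2B controls.

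In 1 limma fit of all 18 libraries, unirradiated A549 differed from unirradiated BEAS-2B cells at all 10 genes, 8 higher and 2 (ICAM1 and RELA) lower, where 83.8% of 13071 genes tested differed at an adjusted p under 0.05, 38.3% higher and 45.4% lower. H446 differed from BEAS-2B at 9 genes, against 81.1% of all genes (35.2% higher, 45.9% lower), with NFKB1, NFKB2, NFKBIA and TNFAIP3 higher, and REL, RELA, RELB, NFKBIE and ICAM1 lower. H446 differed from A549 at 9 genes, against 83.2% (40.5% higher, 42.7% lower), and only ICAM1 was higher in H446. The small RELA difference between A549 and BEAS-2B (-0.25, SE 0.10, limma adjusted p = 0.0266) was lost with quantile normalization (-0.13), equal totals (-0.19) and GC removal (-0.07, adjusted p = 0.431), and without BEAS-2B control replicate 2 (-0.12), A549 control replicate 1 or A549 control replicate 3. Between H446 and BEAS-2B, REL (-0.25, adjusted p = 0.0102) was lost with the same 3 rescalings, and NFKBIA (0.14, adjusted p = 0.0207) without control replicate 1 of either line and in a fit of the control libraries of both lines alone (adjusted p = 0.0542). On the log2(FPKM + 1) scale, A549 exceeded BEAS-2B by 3.53 (SE 0.10) for BIRC3, 2.37 (SE 0.13) for TNFAIP3, 2.18 (SE 0.08) for RELB and 2.10 (SE 0.07) for NFKB2, and lay below it by a difference of -5.02 (SE 0.09) for ICAM1. H446 stood at -1.57 (SE 0.09) for NFKBIE and -2.70 (SE 0.09) for ICAM1 against BEAS-2B. The limma adjusted p for BIRC3 between H446 and BEAS-2B was 0.244, and for RELA between H446 and A549 it was 0.123.

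**Figure D1:**
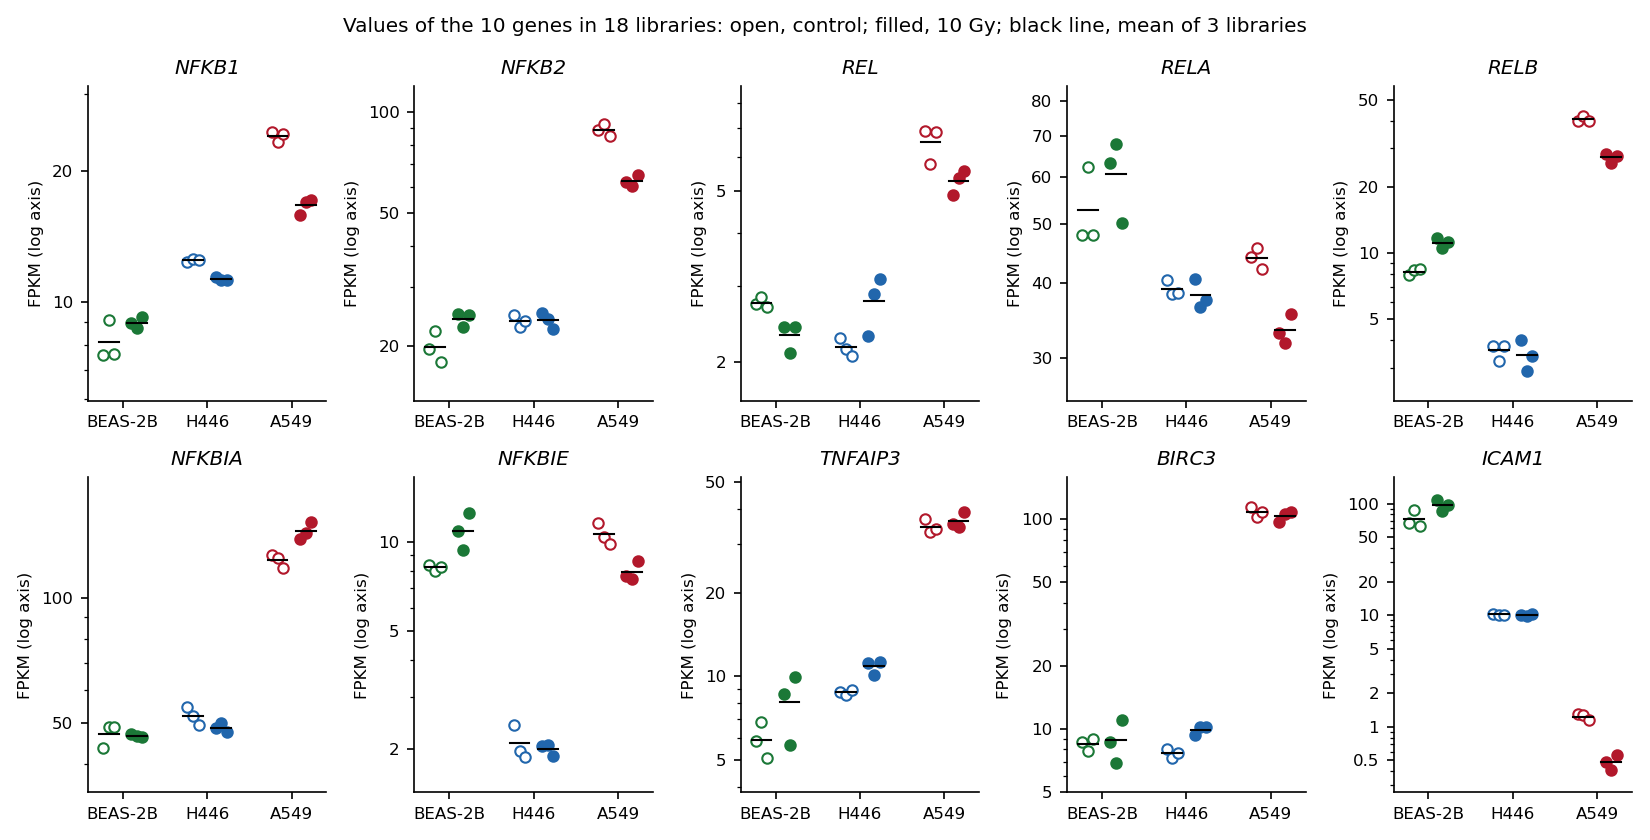
FPKM of each gene (log axis) in every library of BEAS-2B, H446 and A549 cells, with controls as open circles, irradiated libraries as filled circles and the mean of 3 libraries as a black line. A549 libraries are highest for NFKB2, RELB, NFKBIA, TNFAIP3 and BIRC3 and lowest for ICAM1, and in A549 7 genes have all irradiated libraries below all controls.

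In A549 cells all 5 subunit transcripts fell after 10 Gy, and so did NFKBIE and ICAM1, while NFKBIA rose and TNFAIP3 and BIRC3 did not pass the test. The count is 8 of 10, where 51.7% of 11993 genes passed, with 7 lower, where 26.4% of genes were lower, and 1 higher, where 25.3% were higher. The 7 include ICAM1, which entered the test through its controls alone. With at least 1 FPKM required in every library, which leaves ICAM1 out, 6 of 9 genes were lower and 1 was higher, where 27.1% and 25.2% of 11558 genes were. NFKB1 went from 24.59, 23.24 and 24.36 FPKM in the controls to 15.83, 17.01 and 17.17, with no overlap, a log2 fold change of -0.50 (SE 0.05, limma adjusted p = 4.58e-06). NFKB2 went from 88.58, 91.92 and 85.18 to 61.98, 60.41 and 65.09 FPKM (log2 fold change -0.50, SE 0.04, limma adjusted p = 1.76e-06). Both precursors thus lost about the same share of their transcript, with ratios of the means of 0.693 for NFKB1 and 0.706 for NFKB2.

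RELB fell from 40.01, 42.01 and 39.95 to 28.11, 25.81 and 27.71 FPKM (log2 fold change -0.56, SE 0.04, limma adjusted p = 1.08e-06). RELA fell from 44.09, 45.69 and 42.19 to 33.00, 31.71 and 35.53 (log2 fold change -0.39, SE 0.05, limma adjusted p = 4.56e-05). REL, a subunit best known from lymphocytes, was the least abundant, at 6.89, 5.78 and 6.88 FPKM in the controls and 4.90, 5.35 and 5.58 after irradiation (log2 fold change -0.26, SE 0.08, limma adjusted p = 0.0126). The groups did not overlap for any of these subunits, although for REL the lowest control and the highest irradiated library were close, and the adjusted p rose to 0.0502 without 10 Gy replicate 1 and to 0.0552 without control replicate 1.

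The inhibitors of the loop moved in opposite directions. NFKBIA rose from 127.07, 125.11 and 117.99 to 138.57, 143.43 and 152.68 FPKM, all above the controls (log2 fold change 0.23, SE 0.04, limma adjusted p = 9.62e-04). NFKBIE fell from 11.54, 10.36 and 9.86 to 7.68, 7.50 and 8.61 FPKM (log2 fold change -0.38, SE 0.07, limma adjusted p = 7.30e-04). The 3 irradiated libraries were all above the controls in 29% and all below in 29.5% of the genes tested, and for the 10 genes these counts were 1 and 7.

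ICAM1 had the smallest ratio of means, 0.391. Its A549 controls were at 1.30, 1.27 and 1.14 FPKM and its irradiated libraries at 0.48, 0.41 and 0.56 (log2 fold change -0.59, SE 0.09, limma adjusted p = 1.55e-04). The added 1 FPKM shrinks the change of a gene at so low a level, and with a pseudocount of 0.1 the log2 fold change was -1.20 (SE 0.18, limma adjusted p = 1.55e-04). The gene passed the filter of 1 FPKM in 3 libraries through its controls alone, and with no filter its limma adjusted p was 2.91e-04 among 17460 genes. TNFAIP3 gave 37.01, 32.96 and 33.83 FPKM in the controls and 35.34, 34.48 and 39.13 after irradiation (log2 fold change 0.07, SE 0.06, limma adjusted p = 0.336). BIRC3 gave 114.43, 102.04 and 108.73 and then 97.43, 106.13 and 107.87 (log2 fold change -0.06, SE 0.05, limma adjusted p = 0.323). For TNFAIP3 and BIRC3 the groups overlapped, although their A549 levels were the highest of all lines. Bulk RNA cannot tell fewer cells of a kind from less RNA per cell, here or below.

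In A549 cells the summed level of the subunit transcripts was lower after irradiation, with NFKB2 as the largest share in both groups. In A549 controls NFKB2 held 43.4% ± 0.581, RELA 21.6% ± 0.326 and RELB 20.0% ± 0.306 (SD, n = 3) of the summed FPKM of the 5 subunits, and after irradiation 43.1% ± 0.0176, 23.0% ± 0.462 and 18.8% ± 0.679, with the RELA share above and the RELB share below that of every control. The sum itself went from 204 ± 5.05 to 145 ± 5.50 FPKM. In the other lines RELA led, with 57.3% ± 1.80 in BEAS-2B and 48.2% ± 0.414 in H446 controls. With NFKBIA going up as the subunits went down in A549, the ratio of NFKBIA to the summed subunits was 0.605 ± 0.0150 in the controls and 0.999 ± 0.0312 after irradiation. In H446 it was 0.642 ± 0.0252 and 0.613 ± 0.0299, with overlapping libraries, and in BEAS-2B 0.518 ± 0.0560 and 0.438 ± 0.0318, also overlapping. These ratios are of transcripts and are given as a description.

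**Figure D2:**
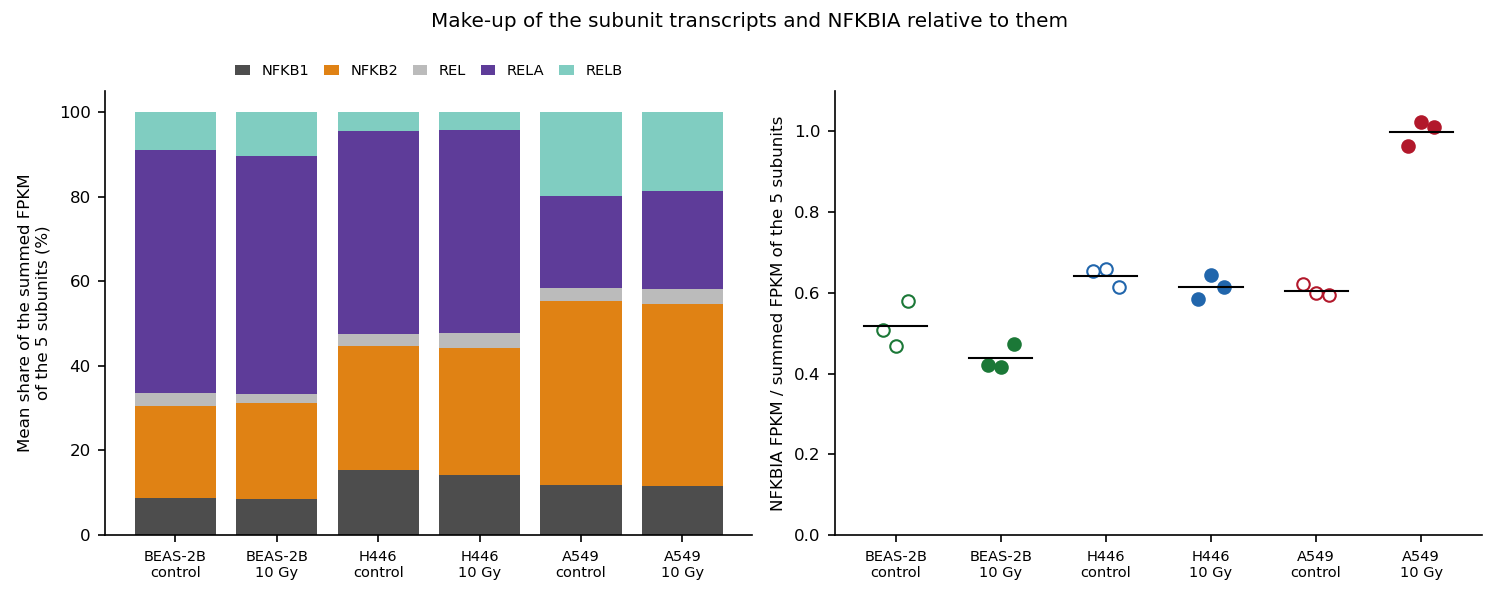
Left, mean share (%) of each subunit in the summed FPKM of NFKB1, NFKB2, REL, RELA and RELB in each group of 3 libraries; right, NFKBIA FPKM divided by that sum in each library (circles, open for controls) with the mean (black line). NFKB2 is the largest share in A549 and RELA in the other lines, and the NFKBIA ratio lies near 0.605 in A549 controls and near 0.999 after 10 Gy.

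In BEAS-2B cells none of the 10 genes passed the threshold, and neither did any other gene, 0% of 11734 tested. At an unadjusted p under 0.05, limma gave 4 of the 10 genes, all higher (NFKB2, RELB, NFKBIE and ICAM1), where 7.01% of all genes were higher and 5.31% lower at that level, 1446 genes in all. RELB was at 7.89, 8.37 and 8.41 FPKM in the controls and at 11.74, 10.50 and 11.15 after irradiation, with no overlap (log2 fold change 0.39, SE 0.08, limma adjusted p = 0.241). NFKBIE was at 8.37, 7.99 and 8.23 and then at 10.88, 9.37 and 12.48, also without overlap (log2 fold change 0.36, SE 0.10, limma adjusted p = 0.250). NFKB2 was at 19.66, 22.25 and 17.91 and then at 25.03, 22.87 and 24.78 (log2 fold change 0.27, SE 0.09, limma adjusted p = 0.285). ICAM1 was at 67.17, 86.80 and 63.36 and then at 107.85, 85.58 and 97.32 (log2 fold change 0.42, SE 0.12, limma adjusted p = 0.254). In ICAM1 the irradiated replicate 2 lay just under the highest control, and the other irradiated libraries lay above all controls.

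TNFAIP3 and RELA moved in opposite directions when that library was left out. The TNFAIP3 controls were at 5.83, 6.85 and 5.07 FPKM and the irradiated libraries at 8.64, 5.64 and 9.94, so that replicate 2, the library with CDKN1A near the controls, was the only irradiated value among the controls (log2 fold change 0.37, SE 0.17, limma adjusted p = 0.407). Without this library 3 of the 10 genes were higher and none lower, where 1.99% of 11680 genes passed, 1.92% higher and 0.0771% lower. They were TNFAIP3 (log2 fold change 0.58, SE 0.12, limma adjusted p = 0.0348), RELB (0.43, SE 0.09, adjusted p = 0.0306) and NFKBIE (0.46, SE 0.09, adjusted p = 0.0300), and ICAM1 had 0.51 (SE 0.12, adjusted p = 0.0766). RELA, whose highest value (68.04 FPKM) is in this library, went from 0.19 (SE 0.13) to 0.10 (SE 0.13). With all 18 libraries in 1 fit, which shares the spread of the lines, NFKB2, RELB, NFKBIE and ICAM1 passed as higher, where 6.44% of genes passed, 3.94% higher and 2.5% lower. With the replicate number as a block RELB, NFKBIE and ICAM1 passed as higher, where 3.74% of genes passed, 2.93% higher and 0.81% lower. The BEAS-2B libraries spanned a Spearman rho with GC content (between a library's deviation from its line and the GC of the transcripts) of -0.629 to 0.705, the highest in 10 Gy replicate 2. After removal of these GC trends, RELB had a log2 fold change of 0.26 (SE 0.09), NFKB2 of 0.15 (SE 0.09) and RELA of 0.11 (SE 0.10), while ICAM1 had 0.34 (SE 0.12), TNFAIP3 0.35 (SE 0.17) and BIRC3 0.19 (SE 0.09), the last higher than before. In that setting limma called 0 of the 10 genes, and 2 were left at an unadjusted p under 0.05, both higher, where 5.43% of all genes were higher and 4.13% lower.

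The remaining genes gave no call in BEAS-2B under these settings. NFKBIA was at 43.60, 49.02 and 49.02 FPKM in the controls and 47.03, 46.75 and 46.34 after irradiation (log2 fold change -0.01, SE 0.07, limma adjusted p = 0.954). REL had all irradiated libraries (2.41, 2.10 and 2.41) below the controls (2.73, 2.83 and 2.69), with a log2 fold change of -0.18 (SE 0.09, limma adjusted p = 0.424). NFKB1, RELA and BIRC3 overlapped between the groups, with log2 fold changes of 0.14 (SE 0.09), 0.19 (SE 0.13) and 0.04 (SE 0.14). Of all genes tested, 7.48% had the irradiated libraries wholly above and 8.87% wholly below the controls, and for the 10 genes the counts were 3 and 1.

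In H446 cells TNFAIP3 and BIRC3 rose and NFKB1 fell slightly, while the other subunits did not pass the test. In all 3 of the 10 genes passed, where 38.4% of 11479 genes did. The 2 higher genes compare with 14.8% of genes higher, and the 1 lower gene with 23.6% lower. BIRC3 rose from 8.02, 7.30 and 7.66 to 9.36, 10.18 and 10.20 FPKM (log2 fold change 0.33, SE 0.06, limma adjusted p = 0.00152). TNFAIP3 rose from 8.80, 8.53 and 8.95 to 11.15, 10.10 and 11.30 FPKM (log2 fold change 0.28, SE 0.06, limma adjusted p = 0.00341), with no overlap, although its adjusted p was 0.124 in the fit of all 18 libraries. REL had irradiated values of 2.30, 2.88 and 3.13 above the controls at 2.28, 2.14 and 2.07, a log2 fold change of 0.25 (SE 0.09) whose limma adjusted p was 0.0521, and it passed in 5 of 9 other settings and once replicate 1 of the irradiated group was left out (adjusted p = 0.00870), but not after GC removal (0.18, adjusted p = 0.119). Wholly separated groups with irradiated libraries above were seen for these 3 genes, against 20.4% of genes tested.

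NFKB1 was at 12.39, 12.55 and 12.52 FPKM in H446 controls and at 11.43, 11.25 and 11.23 after irradiation, wholly below, as were 29.9% of genes tested (log2 fold change -0.13, SE 0.04, limma adjusted p = 0.0374). The GC content of the transcripts also separated the libraries of this line, with a Spearman rho of 0.347 to 0.459 in the controls and of -0.496 to -0.106 after irradiation, so GC and treatment cannot be told apart here. After each library's GC trend was removed, the NFKB1 change was -0.09 (SE 0.04, limma adjusted p = 0.127), NFKB2 passed as higher (0.19, SE 0.04, limma adjusted p = 0.00578), and BIRC3 (0.25) and TNFAIP3 (0.32) stayed past the threshold. The NFKB1 call was lost in 5 of 9 other settings, GC removal and also quantile normalization, equal totals, the replicate block and the fit of all 18 libraries (adjusted p from 0.0631 to 0.127), and in 5 of the 6 fits that left out 1 library, all but that without 10 Gy replicate 1, with adjusted p from 0.0845 to 0.106.

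NFKBIA in H446 was at 54.69, 52.21 and 49.49 FPKM and then at 48.69, 49.99 and 47.68 (log2 fold change -0.09, SE 0.04, limma adjusted p = 0.110). ICAM1 was at 10.32, 10.10 and 10.06 and then at 10.11, 9.84 and 10.34, NFKB2 at 24.75, 22.93 and 23.86 and then at 25.15, 24.22 and 22.55. The groups overlapped for all 3, and likewise for RELA, RELB and NFKBIE, whose log2 fold changes were -0.04 (SE 0.05), -0.06 (SE 0.10) and -0.04 (SE 0.08) and took a positive sign after GC removal, as ICAM1 did.

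**Figure D3:**
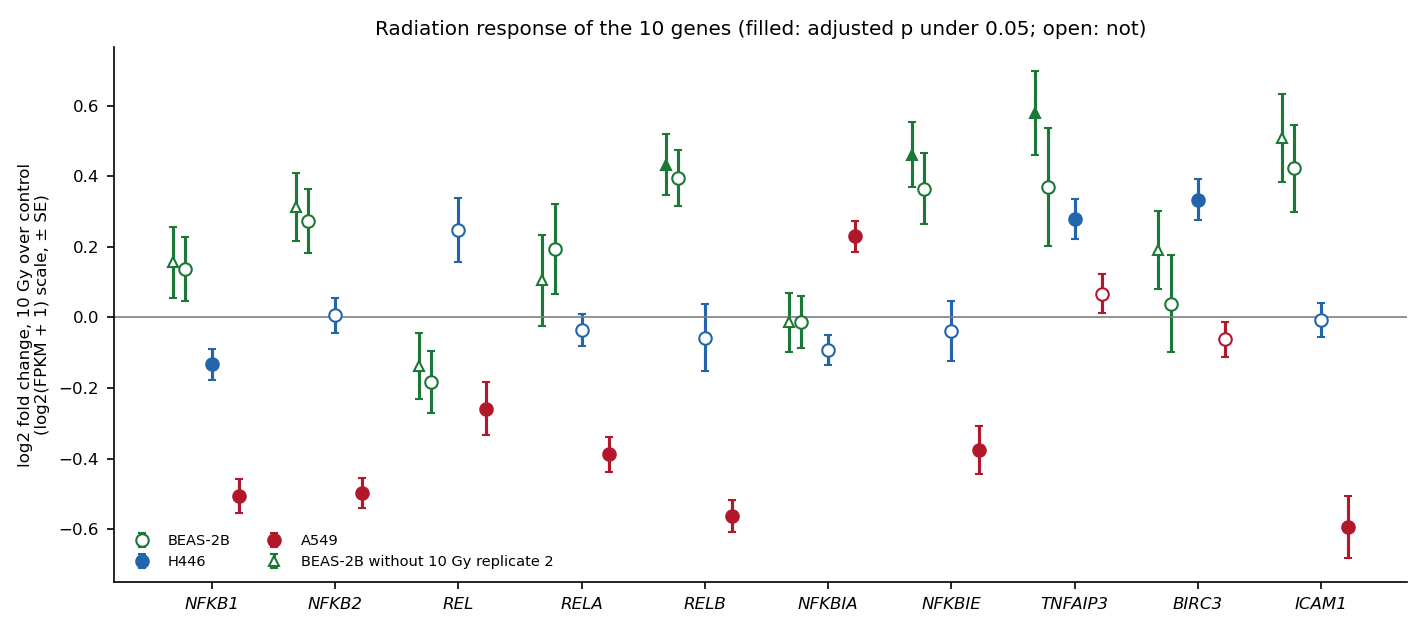
Log2 fold change of 10 Gy over control (log2(FPKM + 1) scale, ± SE, 3 libraries against 3) for each gene for the lines BEAS-2B (green), H446 (blue) and A549 (red), with triangles for BEAS-2B without 10 Gy replicate 2 and filled symbols for an adjusted p under 0.05. Past the threshold are 7 genes below 0 and NFKBIA above it in A549, TNFAIP3 and BIRC3 above and NFKB1 below in H446, and, in these fits of single lines, RELB, NFKBIE and TNFAIP3 in BEAS-2B once that library is left out.

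Whether the responses themselves differed between lines was tested in the fit of all 18 libraries, as the difference of the log2 fold changes. Each line enters these comparisons more than once, so they share libraries. Between BEAS-2B and A549, 7 of the 10 genes differed, where 30.6% of genes did. The 6 genes with the higher response in BEAS-2B (16% of genes) were ICAM1 (1.02, SE 0.13, limma adjusted p = 2.19e-05), RELB (0.96, SE 0.11, adjusted p = 4.90e-06), NFKB2 (0.77, SE 0.09), NFKBIE (0.74, SE 0.12), NFKB1 (0.64, SE 0.08) and RELA (0.58, SE 0.14). NFKBIA had the lower response in BEAS-2B (-0.24, SE 0.07, limma adjusted p = 0.0202), where 14.6% of genes did, and its adjusted p rose to 0.0610 without A549 10 Gy replicate 3 and to 0.0574 without A549 control replicate 3, and was 0.0514 with equal totals. These genes kept these directions in every alternative run, and after GC removal the count was again 7. Without BEAS-2B 10 Gy replicate 2, TNFAIP3 joined them (0.51, SE 0.12, limma adjusted p = 0.00437), against 0.30 (SE 0.18, adjusted p = 0.225) with it.

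Between A549 and H446, 8 genes differed, where 34.6% of genes did. NFKBIA had the higher response in A549 (0.32, SE 0.07, limma adjusted p = 0.00287), and ICAM1 (-0.58, SE 0.13), RELB (-0.51, SE 0.11), REL (-0.51, SE 0.12), NFKB2 (-0.50, SE 0.09), BIRC3 (-0.40, SE 0.14), NFKB1 (-0.37, SE 0.08) and NFKBIE (-0.34, SE 0.12) the lower. In genes overall 19.3% were higher and 15.3% lower. BIRC3 and NFKBIE had adjusted p of 0.0422 and 0.0439 from limma and fell short in most fits that left out 1 library, with adjusted p of up to 0.1002 for BIRC3 without A549 10 Gy replicate 1 and up to 0.118 for NFKBIE without A549 control replicate 1. RELA gave -0.35 (SE 0.14) with a limma adjusted p of 0.0564, and passed after GC removal (-0.46, adjusted p = 0.00303). The fit of all 18 libraries uses 1 spread shared by all lines, BEAS-2B included. In the fits of single lines the SE of RELA was 0.05 in A549, 0.05 in H446 and 0.13 in BEAS-2B. For BIRC3 it was 0.05, 0.06 and 0.14 in the same order.

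Between BEAS-2B and H446, 6 genes differed, where 22.7% of genes did, 13.7% higher and 8.99% lower, with RELB (0.45, SE 0.11), ICAM1 (0.43, SE 0.13), NFKBIE (0.40, SE 0.12), NFKB1 (0.27, SE 0.08) and NFKB2 (0.27, SE 0.09) higher in BEAS-2B and REL (-0.43, SE 0.12) lower. The limma adjusted p lay between 0.00777 for RELB and 0.0459 for NFKB2. Of the 12 fits that left out 1 library, the call was lost in 9 for NFKB2, 8 for NFKB1, 5 for ICAM1 and 3 for NFKBIE, and in 0 for RELB and REL. Without BEAS-2B 10 Gy replicate 3, RELA (0.36, limma adjusted p = 0.0245) and BIRC3 (-0.45, adjusted p = 0.00472) were gained. RELA was also gained without BEAS-2B control replicate 2 (0.35, limma adjusted p = 0.0379). Removing the GC trends left none of the 6 past the threshold. RELB then gave 0.09 (SE 0.11, limma adjusted p = 0.640) and NFKB2 -0.04 (SE 0.10, adjusted p = 0.826), NFKBIE gave 0.12 (SE 0.15), and NFKB1 (0.19, SE 0.08), ICAM1 (0.22, SE 0.13) and REL (-0.27, SE 0.10) retained more of their difference. RELB, NFKB2 and NFKBIE are among the GC-rich genes, with 65.4%, 62.4% and 61.0% GC in the longest transcript, and REL (38.7%) and BIRC3 (34.8%) among the GC-poor.

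**Figure D4:**
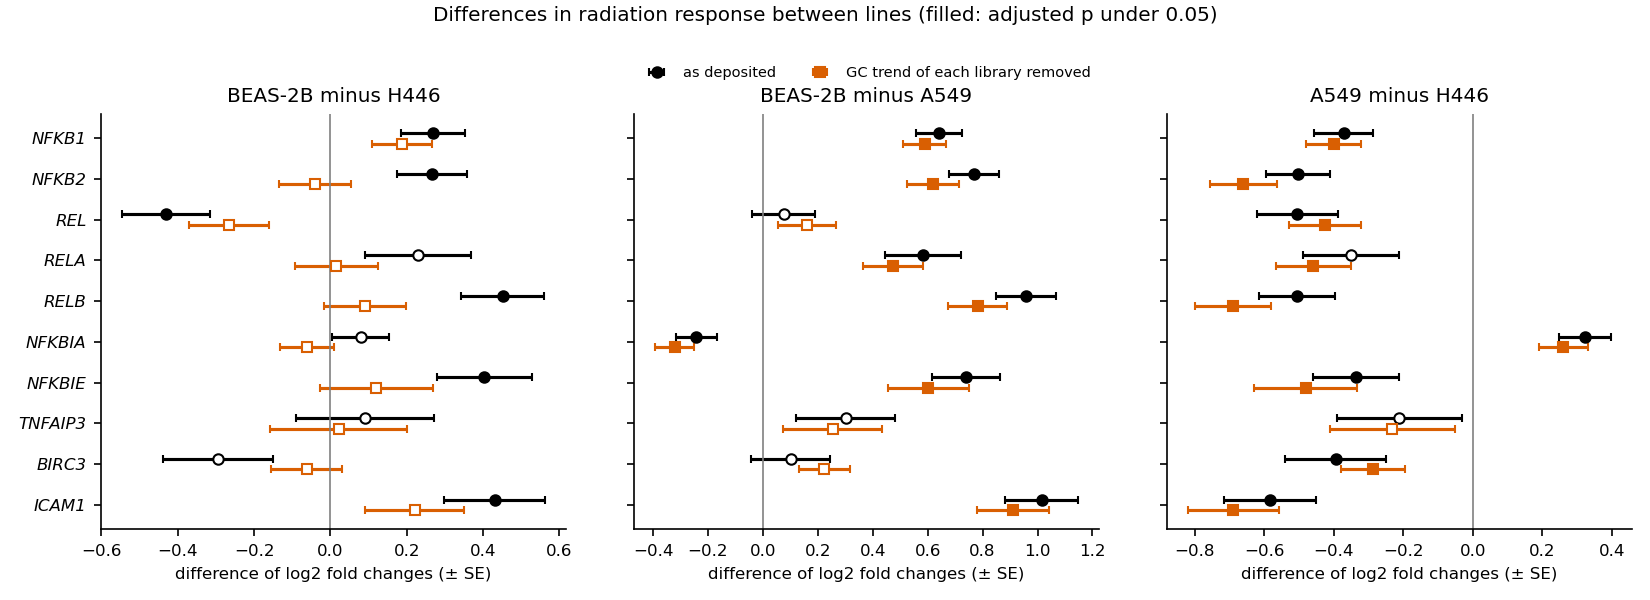
Difference between lines in the log2 fold change after 10 Gy (± SE) for each gene, with values as deposited (black circles) and after removal of each library's GC trend (orange squares), and filled symbols for an adjusted p under 0.05. After the removal 7 genes differ between BEAS-2B and A549, 9 between A549 and H446, where RELB moves from -0.51 to -0.69 and BIRC3 from -0.40 to -0.29, and 0 between BEAS-2B and H446.

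Beyond the 10 genes, 84 other genes of the pathway were followed in 5 lists, some in more than 1 of them. In A549 cells 79 were tested, and 19 rose and 33 fell, where 25.3% and 26.4% of all genes did. The lowest median was that of the list of other NF-kB targets, of which 30 were tested, 18 fell and 5 rose, with a median log2 fold change of -0.29 against -0.004 over all genes. GADD45B, a stress gene, fell from 70.11, 70.80 and 72.14 to 20.19, 19.99 and 19.80 FPKM (log2 fold change -1.78, SE 0.04, limma adjusted p = 3.41e-11). TRAF1, an adaptor of tumor necrosis factor receptors that is also in the receptor list, fell from 5.59, 6.62 and 5.43 to 1.63, 1.63 and 1.79 FPKM (log2 fold change -1.35, SE 0.08, limma adjusted p = 8.43e-08). JUNB, a subunit of AP-1, and IL1A, a cytokine, fell by 0.99 (SE 0.06) and 0.95 (SE 0.08) on the log2 scale.

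For the lists that follow, the same 25.3% of all genes rose and 26.4% fell in A549. Of the receptors and adaptors 8 were higher and 8 lower of 26 tested. TNFRSF12A, the receptor for TWEAK, fell from 127.78, 126.94 and 122.37 to 51.98, 54.18 and 52.64 FPKM (log2 fold change -1.23, SE 0.04, limma adjusted p = 2.28e-10), and the adaptors BIRC2 and TRAF2 fell by 0.59 (SE 0.04) and 0.58 (SE 0.06). Among 11 kinases 3 rose and 3 fell. MAP3K14, the kinase NIK of the non-canonical pathway that leads to p100 processing, fell from 19.48, 21.89 and 20.27 to 12.05, 10.87 and 11.39 FPKM (log2 fold change -0.79, SE 0.06, limma adjusted p = 4.16e-07), and MAP3K8, which binds p105, rose from 6.24, 6.54 and 6.15 to 9.47, 10.47 and 9.93 (0.58, SE 0.06, limma adjusted p = 6.95e-06). Of 11 other inhibitors 2 rose and 4 fell, and of 10 genes of the route from DNA damage 3 rose and 5 fell.

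In H446 cells 71 of the 84 genes were tested, and 17 rose and 17 fell, where 14.8% of all genes rose and 23.6% fell, with a median log2 fold change of -0.03 beside -0.03 over all genes. After GC removal 18 rose and 10 fell, beside 16.2% and 14.8% of all genes. IL32, a cytokine, rose from 1.53, 1.15 and 1.70 to 3.12, 3.90 and 4.10 FPKM (log2 fold change 0.94, SE 0.11, limma adjusted p = 1.31e-04), and CXCL2, a chemokine whose reads may be shared with its close paralogs, fell from 6.29, 5.65 and 5.02 to 4.89, 2.74 and 3.18 (-0.55, SE 0.14, limma adjusted p = 0.0118). In BEAS-2B cells limma called 0 of 72, and at an unadjusted p under 0.05 14 were higher and 3 lower, where 7.01% and 5.31% of all genes were. The other NF-kB targets had 9 of 24 higher at that level and 0 lower, with a median of 0.13 against 0.0019 over all genes, and without 10 Gy replicate 2 limma called 6 of these 24, all higher, where 1.92% of all genes were higher.

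**Figure D5:**
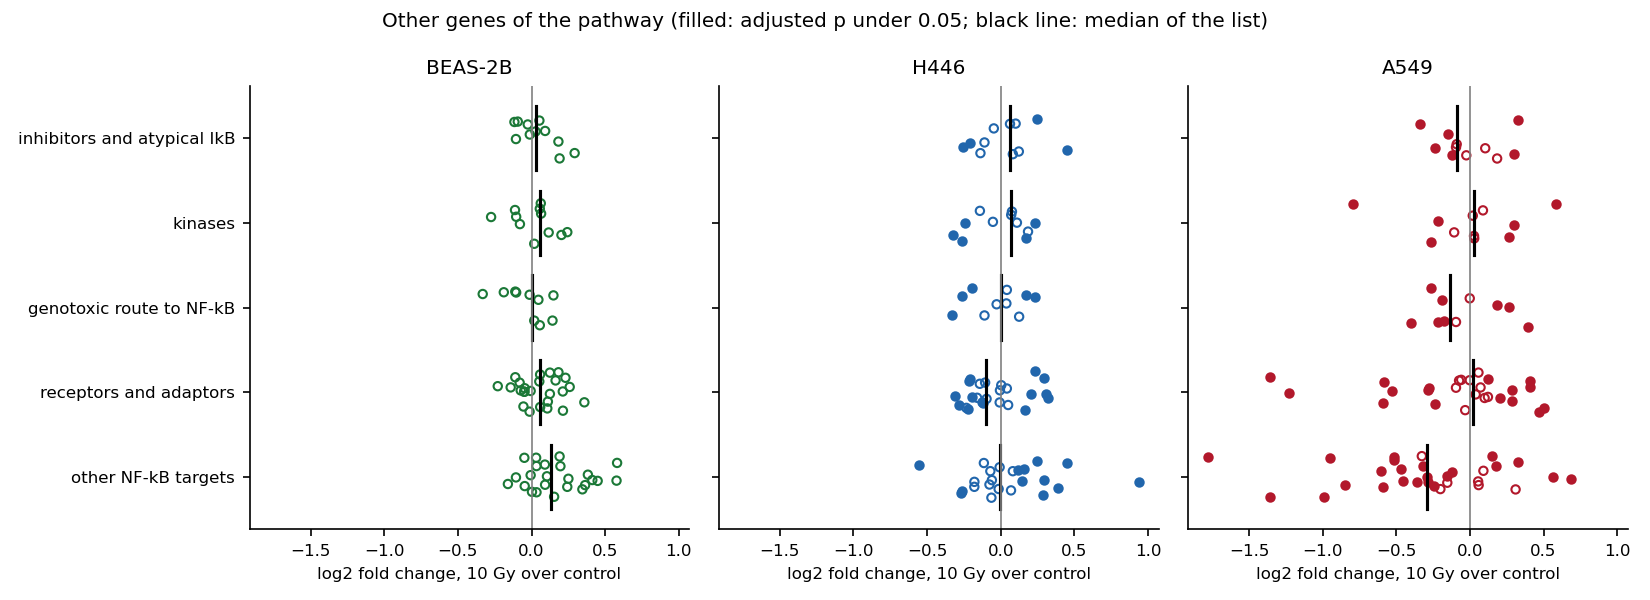
Log2 fold change of 10 Gy over control for the genes of 5 pathway lists (rows; height within a row is arbitrary) in BEAS-2B, H446 and A549 cells, with filled circles for an adjusted p under 0.05 and a black line at the median of the list. The other NF-kB targets have a median of 0.13 in BEAS-2B cells, -0.01 in H446 cells and -0.29 in A549 cells.

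The genes whose values followed each of the 10 most closely were sought over the 18 libraries after the mean of each line was taken off, among 13021 genes. As a description, Pearson r was 0.97 for NFKB2 with KMT5A and with JUN, 0.96 for ICAM1 with KLF10 and with NFKB2, 0.97 and 0.96 for RELA with ACTB and FLNA, 0.94 and 0.93 for RELB with RUSC2 and CSRNP1, and 0.96 and 0.95 for NFKB1 with AMIGO2 and MARS. REL went with AHR and ATF6 (both 0.94), NFKBIE with VEGFA (0.94) and TRIM2 (0.91), TNFAIP3 with KIAA0040 (0.91) and ZNFX1 (0.90), BIRC3 with YIPF4 and CKAP2L (both 0.92) and NFKBIA with CNP (0.88) and ZNF488 (0.87). Among the 10 genes NFKB2 stood closest to ICAM1 (0.96), RELB (0.90) and NFKB1 (0.90), and NFKBIA ran against NFKB2 with an r of -0.56. These points share libraries, the difference between irradiated and control cells and GC composition.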

How the data were processed

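Poly(A) RNA-seq libraries of BEAS-2B, H446 and A549 cells (3 control and 3 irradiated each) were grouped by the sample labels. The authors deposited 1 table of 18475 genes by Entrez number. Its values are taken to be FPKM, since the deposited header names no unit and totals differ between libraries. The submitters' processing notes list HISAT2 2.0.4, Bowtie2 2.2.5, RSEM 1.2.12 and hg38 without their roles, and the annotation is not given in the sources used here. Reads per library are unknown, so no counting interval was given.

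On log2(FPKM + 1), genes with at least 1 FPKM in 3 of the 6 libraries of a line were tested with limma 3.58.1 (lmFit, eBayes with a trend) in R 4.3.3. Differences between lines were taken from a joint fit (18 libraries, 6 group means) of the genes that passed in at least 1 line. A Benjamini-Hochberg adjusted p under 0.05 over all genes was the threshold. Pathway genes are named when past it with an absolute log2 change of at least 0.5, at most 4 in a list and line, and the 2 most alike genes of each member are named by Pearson r. The members, lists and tests were chosen with earlier results of these data known, and the lists share genes. Alternatives were quantile normalization, equal totals, removal of each library's loess trend (span 0.5) on GC content (GENCODE 29 transcripts, 17850 genes), no limma trend, no filter, at least 1 FPKM in every library, a pseudocount of 0.1, a replicate block, other sets of libraries in the fit, and each library left out. Some marker genes are not reported here. The scripts were tested on simulated data. Figures were drawn with matplotlib 3.10.9 under Python 3.11.15.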

Additional observations from a re-analysis of the deposited data

Results flagged for a closer look

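The tests of a difference in response between lines singled out 21 values, as differences of log2 fold changes in the limma fit of all 18 libraries. For BEAS-2B minus A549 they were 0.64 for NFKB1, 0.77 for NFKB2, 0.58 for RELA, 0.96 for RELB, -0.24 for NFKBIA, 0.74 for NFKBIE and 1.02 for ICAM1. For A549 minus H446 they were -0.37 for NFKB1, -0.50 for NFKB2, -0.51 for REL, -0.51 for RELB, 0.32 for NFKBIA, -0.34 for NFKBIE, -0.40 for BIRC3 and -0.58 for ICAM1. For BEAS-2B minus H446 they were 0.27 for NFKB1, 0.27 for NFKB2, -0.43 for REL, 0.45 for RELB, 0.40 for NFKBIE and 0.43 for ICAM1, none of which passed once GC trends had been removed.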

How the results depend on the processing

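Of the values tested in members, 708 kept their direction and their side of the threshold under other settings and 637 with 1 library left out. With the sign kept, calls were lost in 34 and 58 values and gained in 19 and 8. The sign turned in 12 and 14 values. Among these is NFKB2 between BEAS-2B and H446 after GC removal, whose call was also lost and is not in the 34. Counted by gene and comparison together, 15 calls were lost somewhere and 12 gained, those of the report included. RELA between unirradiated H446 and A549 was gained under 3 settings. In BEAS-2B the 0 members called became 4 with all 18 libraries in 1 fit and 0 to 3 with 1 library left out. The replicate numbers are not taken as pairs, since same-numbered libraries correlated between -0.125 and 0.324 after group means were removed, and with the replicate as a block 3 members were called in BEAS-2B (439 genes in all), 2 in H446 and 8 in A549. Between BEAS-2B and H446 the 6 members called became 2 with quantile normalization, 3 with equal totals, 0 after GC removal and 2 to 7 with 1 library left out. The cause was not tested. After GC removal the sign turned for ICAM1 (0.1106), NFKBIE (0.1284), RELA (0.0861) and RELB (0.1627) in H446, for NFKB2 (-0.0407) and NFKBIA (-0.0609) between BEAS-2B and H446, and for BIRC3 (0.021) between unirradiated H446 and BEAS-2B. With quantile normalization it turned in H446 for ICAM1 (0.0342), NFKBIE (0.0296) and RELB (0.0302), and with equal totals for ICAM1 in H446 (0.0108) and NFKBIA in BEAS-2B (0.0021). Leaving out 1 library turned the sign of uncalled values, which ranged in BEAS-2B from -0.0683 to 0.0144 for NFKBIA and from -0.1153 to 0.1914 for BIRC3, and in H446 from -0.0273 to 0.0483 for NFKB2, -0.1482 to 0.031 for RELB, -0.087 to 0.0345 for NFKBIE and -0.0241 to 0.0084 for ICAM1. Between BEAS-2B and H446 TNFAIP3 ranged from -0.0607 to 0.2995, and between BEAS-2B and A549 BIRC3 from -0.0536 to 0.2531. Depth is unknown, so low values such as ICAM1 in A549 have no counting error.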
